A study of Mus musculus with 82 samples.

Results

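Ear skin in which a CCR6 inhibitor was started on day 5 of an imiquimod course was set against ear skin that received imiquimod alone. The members were chosen by their labels: 6 libraries with the drug from day 5 (libraries 13 to 18) and 6 with imiquimod alone (libraries 7 to 12), 12 of the 82 libraries of the series. The drug, IDOR-1117-2520 (spelled with a final C in the treatment labels of all drug groups), was given in drinking water and blocks CCR6, a chemokine receptor. All mice were C57BL/6J Rj females, the tissue was a punch of the right ear, and no source used here gives an age. The drug from day 5 group carried imiquimod as a 5% cream, once a day from day 0 to day 7 (8 applications), and the drug under a label that states a start on day 5. The imiquimod group had the same cream and no drug. The sham group of the same experiment, labelled vehicle, had no imiquimod, and groups with the drug from day 3 and from day 0 completed its 30 libraries, 6 in each of 5 groups. The time labels read day 3, day 5 and day 8 for the drug from day 5, day 3 and day 0, and day 8 for imiquimod and sham. Start and label add up to 8 in each drug group, but no source used here says whether the label counts days of dosing or names the day of sampling. The protocol text describes only a start before imiquimod. A difference in sampling day cannot be told apart from the drug by these labels. Nothing states that each library came from a separate mouse, so p values measure the spread between these libraries, which may be technical.

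Imiquimod activates the nucleic acid sensor TLR7, and in mouse skin it sets off a psoriasis-like response that runs through IL-23 and through lymphocytes that make IL-17A, IL-17F and IL-22. CCR6 is the receptor of CCL20, a chemokine made by keratinocytes, and it is carried by IL-17-producing gamma delta T cells and Th17 cells. IL-17 in turn makes keratinocytes secrete neutrophil chemokines and antimicrobial proteins, while IL-22 and related cytokines thicken the epidermis and hold back its normal differentiation.

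Expression is given as CPM, each gene's counts relative to the library total scaled by TMM factors. Where 3 CPM values stand together for a group they are the lowest, the median and the highest of its 6 libraries. Log2 fold changes are the drug from day 5 over imiquimod alone unless another pair is named, and a value after ± is a standard error. A gene was called where the edgeR adjusted p was under 0.05. Depth was 26.3 M to 34.1 M counts with the drug from day 5 and 29 M to 35.5 M with imiquimod alone, and no pair of libraries within a group differed by as little as sampling noise. Library 13 of the day 5 group stood apart from its group: its score on the first principal component (62.4% of the variance) was 8.77, while the other 5 lay between 24.6 and 37.4, the imiquimod libraries between 40.5 and 55.4 and the sham libraries between -121 and -112. Several of the leading counts are therefore also given without it, and the other counts rest on all libraries. The label of skin was checked on basal keratinocyte genes: the 15 tested members summed to 22648 to 26039 CPM from day 5, against 25261 to 29177 CPM with imiquimod alone, and none was at 0 in any of these libraries. All groups are ear skin and these members had passed a filter on low counts, so the check is weak.

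With the drug from day 5, 5115 of 18434 tested genes differed from imiquimod alone, 27.7% of them, 2770 higher (15%) and 2345 lower (12.7%). Most changes were small: the median size among called genes was 0.28 on the log2 scale, and 361 genes (1.96%) were called with a size of at least 1, of which 223 were higher (1.21%) and 138 lower (0.749%). Without library 13 the number called was 4154, 2233 higher (12% of 18648 tested) and 1921 lower (10.3%). With RLE scaling in place of TMM, or with DESeq2, fewer genes were called higher than lower. All 6 day 5 libraries lay above all 6 imiquimod libraries for 980 genes (5.32%) and below them for 924 (5.01%). Genes of epidermal differentiation, sebaceous glands and the Skint family were on the higher side, and neutrophil chemokines, neutrophil transcripts, stress keratins and small proline-rich proteins on the lower side.

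**Figure D1:**
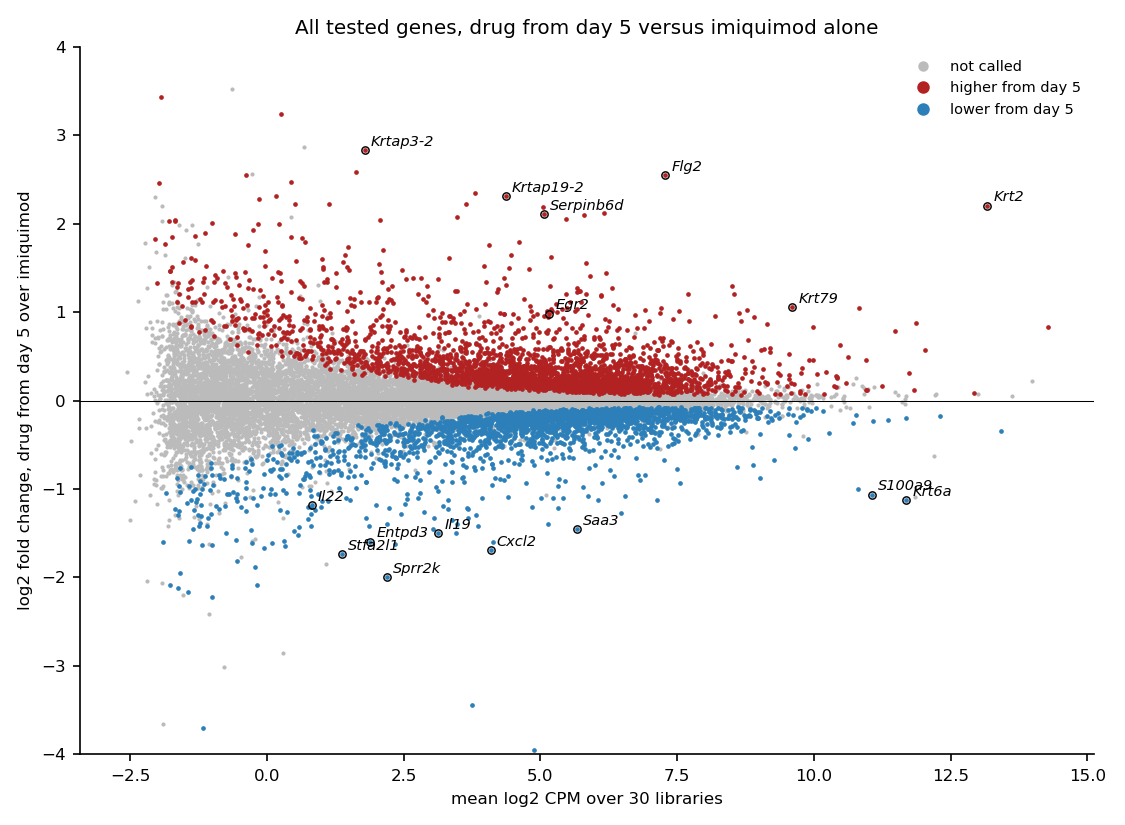
Log2 fold change of the drug from day 5 over imiquimod alone (vertical axis) against the mean log2 CPM over 30 libraries (horizontal axis), 1 point per tested gene, with called genes in red (higher) and blue (lower) and uncalled genes in grey. Circled genes are named in the text, from Krtap3-2 at 2.84 to Sprr2k at -2.0, and 5 of 18434 genes lie outside the vertical axis.

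A wider measure of the imiquimod response used genes chosen in other libraries, those of day 8 of a separate time course in the same series. Of 1867 tested genes that imiquimod raised there by a log2 of at least 1 (10.2% of all genes passed that rule, and 11.6% the reverse one), 718 (38.5%) were lower from day 5 than with imiquimod alone and 49 (2.62%) were higher, with a median log2 fold change of -0.24. Of 2006 genes that imiquimod lowered there, 772 (38.5%) were higher from day 5 and 6 (0.299%) lower, with a median of 0.32. The median over all tested genes was 0.0086. In both sets the day 5 libraries thus lay on the sham side of the imiquimod libraries. Relative to the sham mean, the raised genes had a median log2 CPM of 1.22, 1.51 and 1.64 (lowest, median and highest library) from day 5, against 1.62, 1.73 and 1.83 with imiquimod alone. The lowered genes stood at -1.54, -1.43 and -1.21 from day 5, against -1.80, -1.70 and -1.63 with imiquimod alone. The lowered genes did not overlap between the groups, whereas for the raised genes libraries 14 and 17 of the day 5 group reached the lowest imiquimod library.

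**Figure D2:**
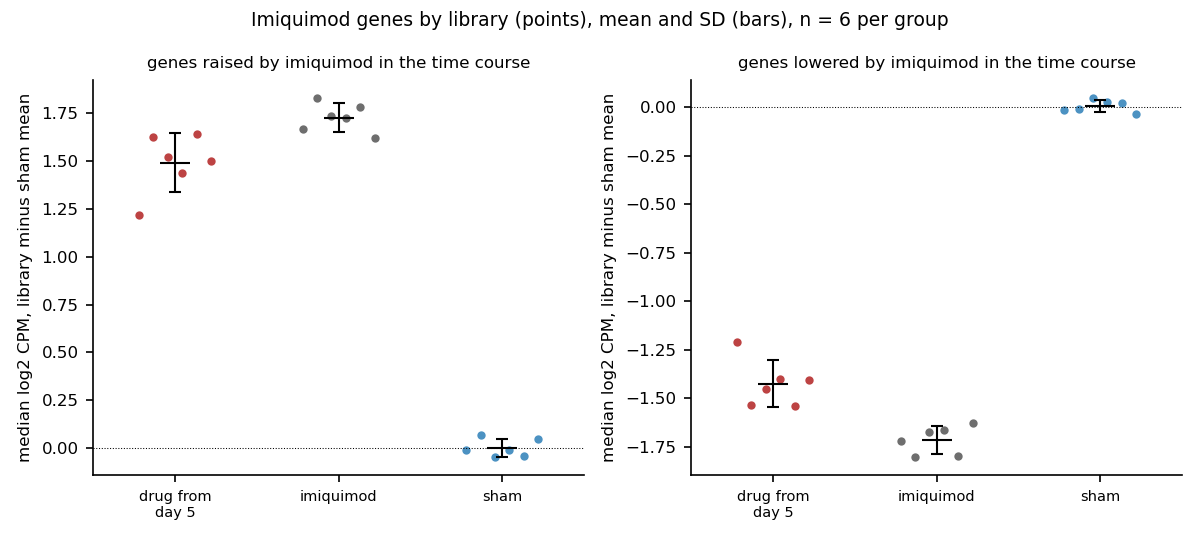
Median log2 CPM per library, relative to the sham mean, of genes raised (left panel) and lowered (right panel) by imiquimod in the time course, for the drug from day 5, imiquimod alone and sham, with points for libraries and bars for the mean and SD of 6. The day 5 libraries sit between 1.22 and 1.64 on the left and between -1.54 and -1.21 on the right, close to the imiquimod libraries and far from sham.

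Transcripts of the target receptor and of 2 of its ligands were lower from day 5. Ccr6 stood at 0.521, 1.03 and 1.34 CPM from day 5, against 1.24, 1.53 and 1.9 CPM with imiquimod alone, a log2 fold change of -0.67 ± 0.24 with an adjusted p of 0.033. The groups overlapped, and the call was lost when library 13 or 15 of the day 5 group or library 8, 9 or 12 of the imiquimod group was left out, with an adjusted p of up to 0.0944. A drug that blocks the receptor protein need not change its transcript, so Ccr6 is no check of the labels. Ccl20, its chemokine ligand, had 5.83, 11.5 and 24.9 CPM from day 5, against 3.09, 8.81 and 12.9 CPM with imiquimod alone, and did not pass (adjusted p = 0.254). Both beta-defensins of the list, which can also bind CCR6, fell: Defb4 by a log2 fold change of -1.21 ± 0.18 with no overlap between the groups, and Defb14 by -0.61 ± 0.18.

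Among the IL-17 axis cytokines, Il22 and Il17f fell while Il17a and Il23a did not pass. Il22, whose product drives keratinocyte thickening, had 0.681, 1.72 and 2.19 CPM from day 5, against 2.44, 3.33 and 5.14 CPM with imiquimod alone (log2 fold change -1.18 ± 0.27, adjusted p = 0.00142). Il17f had 1.08, 2.35 and 3.58 CPM from day 5, against 3.86, 4.82 and 6.18 CPM with imiquimod alone (log2 fold change -0.99 ± 0.27, adjusted p = 0.00562). For both, every day 5 library lay below every imiquimod library. Il17a, the signature cytokine of the pathway, had 0.16, 0.544 and 0.828 CPM from day 5, against 0.354, 0.63 and 1.2 CPM with imiquimod alone, and its log2 fold change was -0.34 ± 0.36 (adjusted p = 0.526). Il23a, the IL-23 subunit that sustains these cells, had 0.586, 0.708 and 1.32 CPM from day 5, against 0.684, 1.18 and 1.41 CPM with imiquimod alone (adjusted p = 0.217). At these low levels a difference of the size seen could not be told from the spread between libraries. Of the 25 tested genes of the axis 3 were called higher (12%) and 5 lower (20%), near the 15% and 12.7% of all tested genes. Il17ra, the shared receptor subunit, fell (-0.33 ± 0.057 on the log2 scale), while Rora, a transcription factor that takes part in IL-17 production but is also expressed in skin cells of other kinds, rose by 0.53 ± 0.10. Il23r, the IL-23 receptor, had 0.103, 0.268 and 0.971 CPM from day 5, against 0.283, 0.569 and 0.823 CPM with imiquimod alone, and did not pass.

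**Figure D3:**
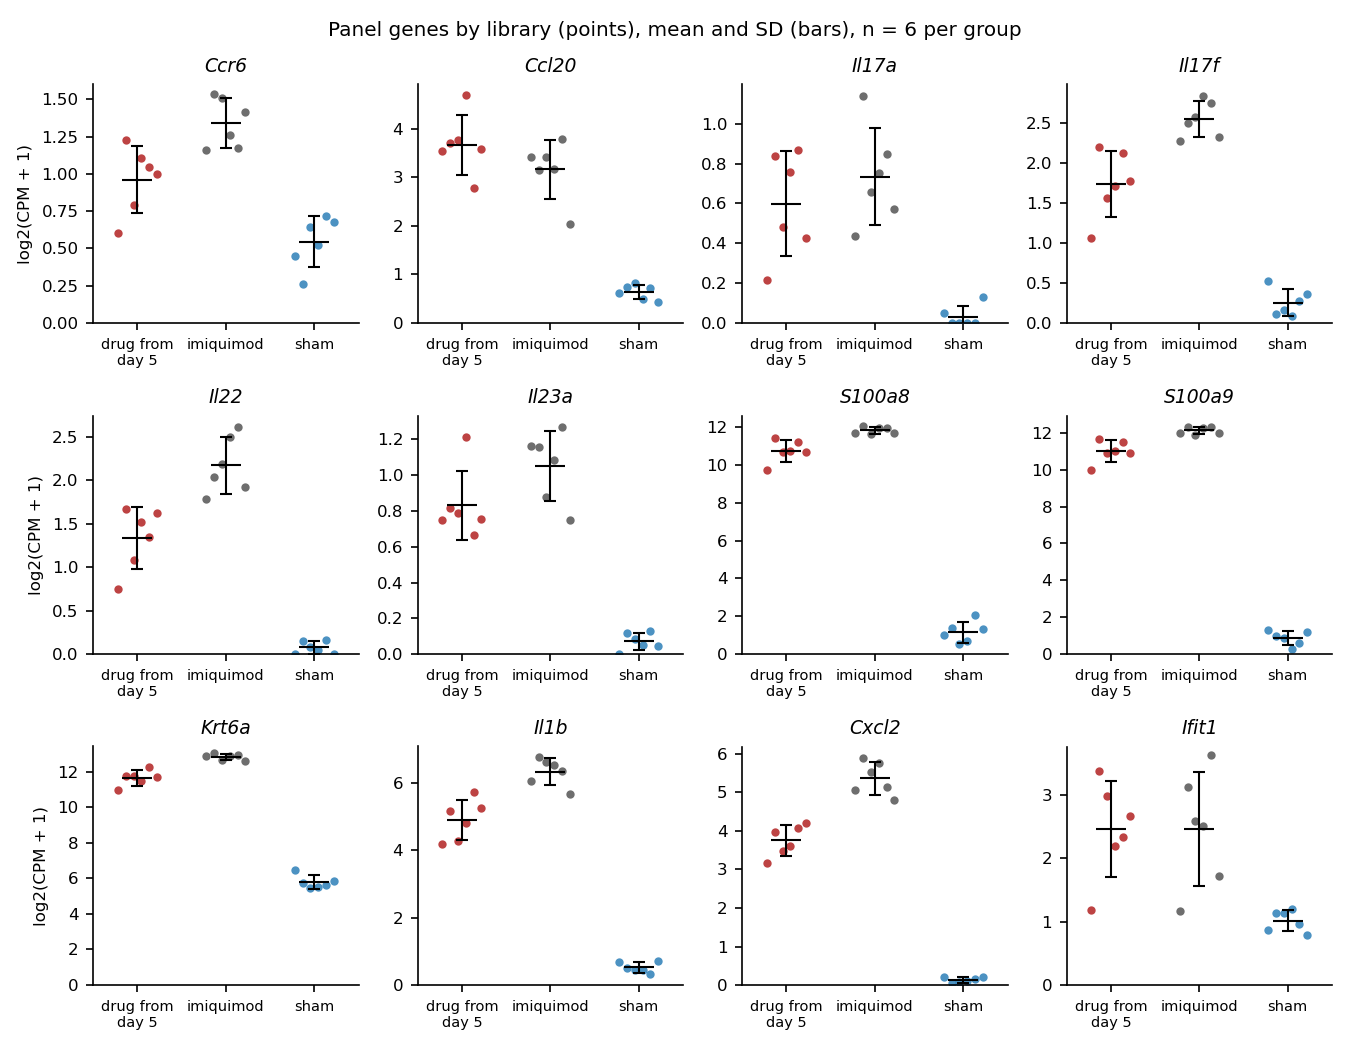
Log2(CPM + 1) of the 12 panel genes in each library of the drug from day 5, imiquimod and sham groups, with points for libraries and bars for the mean and SD of 6. Il17f, Il22, S100a8, S100a9, Krt6a and Cxcl2 show 6 day 5 libraries below 6 imiquimod libraries, while Ccl20, Il17a, Il23a and Ifit1 overlap.

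Transcripts that mark IL-17-type gamma delta T cells were called lower in 5 of 16 tested (31.2%, against 12.7% of all genes). In 2 they were higher (12.5%, against 15%). Those lower numbered 3 (18.8%) without library 13, 15, 16 or 18 of the day 5 group or library 8 of the imiquimod group, and 9 without library 14. Those lower with the smallest adjusted p are not restricted to these cells: the IL-1 receptor Il1r1 (-0.41 ± 0.075), Ccr2, which also guides monocytes (-0.65 ± 0.15), and Cxcr6 (-0.69 ± 0.19) fell. Trdc, the constant segment of the delta chain and the defining gene of the lineage, had 2.07, 3.26 and 5.13 CPM from day 5, against 3.65, 4.3 and 7.61 CPM with imiquimod alone (log2 fold change -0.51 ± 0.20, adjusted p = 0.0488). That call is fragile: it was lost on leaving out any of libraries 13, 15, 16, 17 and 18 of the day 5 group or 8, 10 and 11 of the imiquimod group, with an adjusted p of up to 0.194. Trgc1 (-0.20 ± 0.24, adjusted p = 0.609) and the scavenger receptor Scart2 of dermal gamma delta T cells (-0.46 ± 0.23, adjusted p = 0.145) did not pass. None of 7 tested transcripts of epidermal gamma delta T cells was called by edgeR with all libraries, and 1 had an unadjusted p under 0.05. DESeq2 called 1 lower, as did edgeR without library 14 of the day 5 group or without library 12 of the imiquimod group. In an ear punch, fewer cells of a type and less RNA per cell cannot be told apart, which holds for each cell type named here.

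Of 21 tested transcripts of T cells and cytotoxic lymphocytes 6 were lower (28.6%, against 12.7% of all genes) and 0 higher, and 4 (19%) were lower without library 13 or 15 of the day 5 group. Gzmb, the cytotoxic granule protease, had 2.7, 3.94 and 4.55 CPM from day 5, against 4.72, 6.37 and 9.62 CPM with imiquimod alone (log2 fold change -0.84 ± 0.18), and Ctla4, a checkpoint receptor of activated and regulatory T cells, changed by -0.79 ± 0.19. Neither overlapped between the groups. Il2ra, the IL-2 receptor alpha chain, and Trbc2, a T cell receptor beta constant segment, also fell (-0.63 ± 0.19 and -0.30 ± 0.084 on the log2 scale). Cd3e, a T cell receptor subunit, was at 3.38, 3.63 and 4.43 CPM from day 5, against 3.08, 3.69 and 4.27 CPM with imiquimod alone (adjusted p = 0.942).

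The neutrophil chemokines and growth factors were lower in 9 of 9 tested, with a median log2 fold change of -1.49, against 12.7% of all tested genes called lower. Without library 13, 8 of the 9 were lower. Cxcl2, a CXCR2 ligand that draws neutrophils, had 8.05, 12.9 and 17.5 CPM from day 5, against 26.9, 39.5 and 58.7 CPM with imiquimod alone (log2 fold change -1.69 ± 0.34, adjusted p = 5.32e-04). Cxcl5, another CXCR2 ligand, had 4.93, 9.18 and 18.2 CPM from day 5, against 19.6, 29.2 and 35.9 CPM with imiquimod alone (log2 fold change -1.49 ± 0.31, adjusted p = 6.80e-04). In each of these the day 5 libraries all lay below the imiquimod libraries. The same separation held for Cxcl3 (-1.63 ± 0.39), for Ppbp, a chemokine stored in platelets (-2.09 ± 0.37), and for Pf4, its platelet neighbour (-0.45 ± 0.088). Cxcl1, named after its values were seen because its promoter is shown, had 5.75, 8.61 and 10.5 CPM from day 5, against 11.1, 16.3 and 23.9 CPM with imiquimod alone, a log2 fold change of -0.98 ± 0.32. Its adjusted p was 0.0239 and rose to at most 0.0685 on leaving out a library, with the call lost without library 13 or 15 of the day 5 group or 11 of the imiquimod group.

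Cxcl1, Cxcl2 and Cxcl3 lie near each other on chromosome 5 and moved together, so the 250 bases before their starts are shown (RefSeq, GRCm38.p6, plus strand, 5′ to 3′). Capitals mark GGG, any 3 bases and then TTCC, a form of the site bound by NF-kB, a factor that switches on many inflammatory genes, searched on both strands, so overlapping matches merge. The spans are chr5:90890995-90891244 for Cxcl1, chr5:90903649-90903898 for Cxcl2 and chr5:90785851-90786100 for Cxcl3.
Cxcl1: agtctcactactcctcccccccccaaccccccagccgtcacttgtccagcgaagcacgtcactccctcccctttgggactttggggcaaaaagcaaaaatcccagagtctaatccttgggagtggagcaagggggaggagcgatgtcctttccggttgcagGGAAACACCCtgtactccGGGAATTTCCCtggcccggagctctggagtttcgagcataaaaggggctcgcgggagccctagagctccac
Cxcl2: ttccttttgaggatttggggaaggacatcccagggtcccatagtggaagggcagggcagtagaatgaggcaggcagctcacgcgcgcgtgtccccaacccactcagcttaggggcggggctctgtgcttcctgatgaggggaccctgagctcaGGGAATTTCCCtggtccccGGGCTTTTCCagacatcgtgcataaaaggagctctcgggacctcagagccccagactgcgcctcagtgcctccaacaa
Cxcl3: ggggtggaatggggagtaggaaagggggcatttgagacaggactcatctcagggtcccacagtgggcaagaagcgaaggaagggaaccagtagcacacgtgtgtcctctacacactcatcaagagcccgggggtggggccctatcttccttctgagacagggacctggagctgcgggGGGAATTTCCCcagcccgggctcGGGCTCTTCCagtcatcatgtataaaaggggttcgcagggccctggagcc
Each of the 3 holds 3 matches. Of 6 list members with a promoter entry, 3 held the motif (50%), against 1244 of 27025 promoters of the same length in all (4.6%). It was also found in 3 of 11 promoters of the Skint family (27.3%), a list in which every tested member was higher, and in 0 of 13 Sprr and 0 of 6 stefin promoters, lists that were mostly lower. The match says only that these letters are in the window, not that a factor was bound.

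Neutrophil transcripts were lower in 15 of 18 tested (83.3%, against 12.7% of all genes) and higher in 1 (5.56%, against 15%). Without library 13, 13 were lower (72.2%, against 10.3% of all genes). The median log2 fold change was -1.11. The summed level of the whole list went the other way, at 1859 to 2661 CPM from day 5, against 1232 to 1906 CPM with imiquimod alone and 362 to 502 CPM in sham ears, because 1 member, Asprv1, made up most of it and rose. Without Asprv1, left out after its values were seen, the sum was 99.9 to 214 CPM from day 5, against 222 to 393 CPM with imiquimod alone and 82.9 to 123 CPM in sham ears. No member was at 0 in a day 5 or imiquimod library. Mmp8, the neutrophil collagenase, had 0.601, 1.47 and 2.07 CPM from day 5, against 3.04, 3.81 and 4.13 CPM with imiquimod alone (log2 fold change -1.34 ± 0.25). Trem1, a receptor that amplifies neutrophil and monocyte activation, had 2.0, 3.21 and 5.98 CPM from day 5, against 6.09, 8.88 and 10.6 CPM with imiquimod alone (log2 fold change -1.18 ± 0.22). The groups did not overlap in either gene, nor in Mmp9, a gelatinase (-1.33 ± 0.18), or in Clec4d, a myeloid lectin (-1.12 ± 0.21). Cxcr2, the chemokine receptor of neutrophils, was -0.28 ± 0.12 with an adjusted p of 0.0818, and G0s2, also a gene of fat cells, was 0.12 ± 0.12, so neither passed. The exception in the list, Asprv1, rose by 0.63 ± 0.14. In skin it encodes an epidermal protease that processes filaggrin.

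Calprotectin, the S100a8 and S100a9 dimer made by neutrophils and by inflamed keratinocytes, fell by about the same amount in both subunits. S100a8 had 852, 1708 and 2743 CPM from day 5, against 3194, 3690.2 and 4256 CPM with imiquimod alone (log2 fold change -1.01 ± 0.23, adjusted p = 0.00147). S100a9 had 1001, 1975 and 3227 CPM from day 5, against 3819, 4527 and 5166 CPM with imiquimod alone (log2 fold change -1.06 ± 0.22, adjusted p = 7.42e-04). Every day 5 library was below every imiquimod library, and all of them were above sham, where the highest library had 3.13 CPM of S100a8 and 1.45 CPM of S100a9. Of 11 tested S100 genes 5 fell (45.5%, against 12.7% of all genes) and 2 rose (18.2%, against 15%). Without library 13, 4 fell (36.4%, against 10.3% of all genes). Among those that fell were the psoriasin homologue S100a7a (-1.23 ± 0.21) and S100a11 (-0.13 ± 0.028).

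Antimicrobial proteins were lower in 9 of 16 tested (56.2%, against 12.7% of all genes) and higher in 3 (18.8%, against 15%). Without library 13, 8 were lower (50%, against 10.3% of all genes). The beta-defensin Defb3 had 7.81, 11.7 and 21.1 CPM from day 5, against 22.7, 33.1 and 43.2 CPM with imiquimod alone (log2 fold change -1.30 ± 0.21). Chil3, a chitinase-like protein of myeloid cells, changed by -1.42 ± 0.22, and Defb4 fell with them as given above. The 3 that rose were Defb6 (0.51 ± 0.074), lysozyme gene Lyz1 (0.84 ± 0.18) and the epidermal protease-inhibitor-like Wfdc21 (0.86 ± 0.23). Lyz1 and Wfdc21 were named after their values were seen. Acute-phase genes fell in 6 of 10 (60%, against 12.7% of all genes) and rose in 1 (10%, against 15%). Saa3, a local serum amyloid, had 22.3, 38.3 and 95 CPM from day 5, against 97.7, 123 and 162 CPM with imiquimod alone (log2 fold change -1.46 ± 0.32), while Hp changed by -0.86 ± 0.16, Cp by -0.35 ± 0.068 and Orm1 by 0.63 ± 0.11.

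Among the stress keratins, which replace the normal suprabasal keratins in thickened epidermis, Krt6a had 1972, 3427 and 5001 CPM from day 5, against 6147, 7603 and 8397 CPM with imiquimod alone (log2 fold change -1.13 ± 0.18, adjusted p = 5.08e-05). Krt17 fell (-0.43 ± 0.13) with overlapping groups. Krt6b had 2115, 3883 and 5494 CPM from day 5, against 7311, 8306 and 9068 CPM with imiquimod alone. Its log2 fold change was -1.09 ± 0.43, but the adjusted p was 0.0638 in the fit that shares the spread of all 5 groups. Krt16 likewise did not overlap and did not pass (-0.62 ± 0.27, adjusted p = 0.0869). With only the 2 groups compared in the fit, both Krt6b and Krt16 passed.

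Small proline-rich proteins, cross-linked into the cornified envelope of stressed epidermis, were lower in 11 of 15 tested (73.3%, against 12.7% of all genes). Of the rest 1 was higher (6.67%, against 15%). Sprr2k had 1.0, 2.82 and 6.43 CPM from day 5, against 9.12, 13.6 and 18.9 CPM with imiquimod alone (log2 fold change -2.0 ± 0.30, adjusted p = 2.57e-05). Sprr1a had 282, 451 and 527 CPM from day 5, against 593, 746 and 851 CPM with imiquimod alone (log2 fold change -0.76 ± 0.15). Sprr2j-ps changed by -1.60 ± 0.26, and Sprr4 rose by 1.60 ± 0.28. The groups did not overlap in any of these 4. Sprr2 genes are near copies of each other, so counts among them may be split or shared by the authors' counting.

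The Sprr genes share a cluster on chromosome 3, and promoters of 2 that fell are shown (RefSeq, GRCm38.p6, 5′ to 3′ on the gene's strand). Capitals mark TGANTCA, the site of AP-1 factors, which drive stress and differentiation genes in keratinocytes, searched on both strands. The spans are chr3:92485882-92486131 on the minus strand for Sprr1a and chr3:92432332-92432581 on the plus strand for Sprr2k.
Sprr1a: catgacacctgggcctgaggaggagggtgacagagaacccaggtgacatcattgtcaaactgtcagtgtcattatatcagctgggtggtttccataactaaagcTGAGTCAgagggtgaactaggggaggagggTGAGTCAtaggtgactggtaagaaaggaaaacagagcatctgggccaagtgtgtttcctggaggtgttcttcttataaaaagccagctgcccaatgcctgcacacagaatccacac
Sprr2k: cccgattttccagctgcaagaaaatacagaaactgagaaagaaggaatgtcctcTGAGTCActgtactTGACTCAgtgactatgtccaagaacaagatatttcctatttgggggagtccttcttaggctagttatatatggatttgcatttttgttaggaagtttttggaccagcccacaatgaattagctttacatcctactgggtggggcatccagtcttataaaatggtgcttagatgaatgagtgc
Both hold 2 matches. The motif was found in 9 of 13 Sprr promoters in the table (69.2%), against 1856 of 27025 in all (6.87%). The 4 without a match were Sprr4, Sprr2a1, Sprr2a2 and Sprr2a3. Sprr2 genes are near copies, so their promoters may not be independent. The motif was in 0 of 6 stefin, 1 of 9 S100 (11.1%) and 1 of 6 neutrophil chemokine promoters (16.7%). Each of these lists had members that were lower. In the Skint family, where every tested member was higher, it was in 1 of 11 (9.09%). A match or its lack says only which letters are in this window.

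Type A stefins are inhibitors of cathepsins made in stressed keratinocytes and neutrophils. They were lower in 5 of 7 tested (71.4%, against 12.7% of all genes) and higher in 0. Stfa2l1 had 1.12, 1.96 and 3.61 CPM from day 5, against 5.44, 6.69 and 9.52 CPM with imiquimod alone (log2 fold change -1.73 ± 0.29), and Stfa2 changed by -1.08 ± 0.18, Stfa1 by -0.93 ± 0.20 and Cstdc6 by -0.77 ± 0.12. None of the 4 overlapped between the groups. These genes too are near copies, and Stfa1 lost its call under DESeq2.

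In the IL-1 and IL-36 family 10 of 26 tested genes fell (38.5%, against 12.7% of all genes) and 5 rose (19.2%, against 15%). The share that rose was thus near that of all genes. Without library 13, 8 fell (30.8%, against 10.3% of all genes). Il1b, a neutrophil-recruiting cytokine of myeloid cells, had 17.3, 30.9 and 52.1 CPM from day 5, against 49.8, 86.3 and 107 CPM with imiquimod alone (log2 fold change -1.39 ± 0.31, adjusted p = 0.00128), and 1 day 5 library reached the lowest imiquimod library. Nlrp3, the inflammasome sensor that acts upstream of IL-1 beta release, changed by -1.17 ± 0.20, the alarmin Il33 by -0.90 ± 0.13 and the IL-18 receptor subunit Il18rap by -1.46 ± 0.18, each with no overlap. Il1f10, which encodes IL-38, an antagonist of the family, rose by 1.57 ± 0.25. Il36a, an epithelial IL-36, had 148, 181 and 194 CPM from day 5, against 145, 182 and 205 CPM with imiquimod alone, and did not pass (log2 fold change -0.0075 ± 0.093). In the IL-20 subfamily the cytokines Il19 (2.6, 9.25 and 11 CPM from day 5, against 19.4, 22.9 and 28.5 CPM with imiquimod alone) and Il24 (-1.81 ± 0.53) fell, and their receptor chains Il20ra (0.67 ± 0.14) and Il20rb (0.63 ± 0.072) rose.

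Feedback genes of inflammatory signalling were called lower in 4 of 15 (26.7%, against 12.7% of all genes) and higher in 1 (6.67%, against 15%). Socs3, induced by STAT3, had 50.9, 66.7 and 74.5 CPM from day 5, against 83.6, 104 and 127 CPM with imiquimod alone (log2 fold change -0.73 ± 0.14). Socs1 changed by -0.55 ± 0.13 and Nfkbie, an inhibitor of NF-kB, by -0.40 ± 0.10, while Tnip1 rose by 0.17 ± 0.051.

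Few interferon genes were called, although 22 of 35 tested type I response genes were higher from day 5 than in sham ears (37.4% of all genes were). Of the same 35, 1 was higher than with imiquimod alone, Ifi27 (0.42 ± 0.079), and 0 were lower, with a median of 0.011. Of all genes 15% were higher and 12.7% lower. Of 26 genes of the interferon gamma response and antigen presentation 0 were called by edgeR, 3 had an unadjusted p under 0.05 and at most 1 was called in any alternative. Ifit1 had 1.28, 4.71 and 9.44 CPM from day 5, against 1.24, 4.87 and 11.4 CPM with imiquimod alone (log2 fold change -0.072 ± 0.47, adjusted p = 0.936). The transcription factor Irf7 had 10.8, 32.6 and 54.2 CPM from day 5, against 8.67, 22.9 and 62.8 CPM with imiquimod alone (log2 fold change 0.14 ± 0.43). Both groups were widely spread in these genes and overlapped. Tlr7, the sensor of imiquimod, was -0.072 ± 0.13 (adjusted p = 0.738). Of 9 tested genes of endosomal TLRs and their adaptors 2 were lower (22.2%, against 12.7% of all genes): Tlr13 (-0.70 ± 0.15) and Myd88 (-0.20 ± 0.068) fell, and the call of Myd88 was lost without library 13 or 16 of the day 5 group or 9 or 11 of the imiquimod group (adjusted p up to 0.094).

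DNA replication genes were slightly lower, in 13 of 26 tested (50%, against 12.7% of all genes) and higher in 0, with a median log2 fold change of -0.16. Rrm2, a subunit of ribonucleotide reductase, had 62.2, 68.5 and 78 CPM from day 5, against 80.8, 88.5 and 114 CPM with imiquimod alone, and the helicase subunits Mcm4 (-0.22 ± 0.046) and Mcm5 (-0.28 ± 0.062) and the cyclin Ccne1 (-0.40 ± 0.10) also fell. Mitosis genes were lower in 8 of 28 (28.6%), in 5 without library 14 or 16, and in 4 without imiquimod library 10. Without library 13 they were lower in 3 of 28 (10.7%), near the 10.3% of all genes in that fit. Mybl2, a regulator of mitotic genes, changed by -0.59 ± 0.085 and the kinase Aurka by -0.26 ± 0.079, whereas the proliferation marker Mki67 was -0.021 ± 0.06 (adjusted p = 0.842). Glycolysis and hypoxia genes fell in 10 of 22 and rose in 2, beside 12.7% and 15% of all genes. Those lower included Hif1a (-0.49 ± 0.07), the glucose transporter Slc2a1 (-0.46 ± 0.085), Pgam1 (-0.29 ± 0.051) and Gapdh (-0.23 ± 0.045).

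Genes of suprabasal differentiation and cornification, the programme that builds the skin barrier, were higher in 28 of 48 tested and lower in 8, against 15% and 12.7% of all genes. Without library 13 the counts were 24 and 7. Krt2, a keratin of late differentiation, had 4242, 10808 and 22293 CPM from day 5, against 1099.8, 2558 and 3221 CPM with imiquimod alone and 6996 to 9611 CPM in sham ears (log2 fold change over imiquimod 2.21 ± 0.30, adjusted p = 9.50e-06). Flg2, a filaggrin-like barrier protein, had 69.5, 92.9 and 304 CPM from day 5, against 9.11, 23 and 36.4 CPM with imiquimod alone (log2 fold change 2.55 ± 0.39, adjusted p = 3.61e-05). Neither gene overlapped between the groups. The main barrier proteins Lor (loricrin, 1.05 ± 0.18) and Flg (filaggrin, 0.88 ± 0.19), the suprabasal keratin Krt10 (0.84 ± 0.13) and the late envelope gene Lce1i (1.10 ± 0.17) also rose, with no overlap. Krt1, the partner of Krt10, did not pass (0.22 ± 0.10, adjusted p = 0.0988). Tgm3, a transglutaminase that cross-links the envelope, and Dsc2, a desmosomal cadherin, went the other way, at -0.53 ± 0.061 and -0.90 ± 0.11.

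In the basal layer 7 of 15 tested genes fell and 4 rose, beside 12.7% and 15% of all genes. Krt14, the main basal keratin, changed by -0.35 ± 0.066 and the integrin Itgb1 by -0.23 ± 0.034. Krt15, a keratin of resting basal and hair follicle cells, rose by 0.90 ± 0.17 and Krt5 did not pass (0.077 ± 0.033).

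Of all tested genes 15% were higher and 12.7% lower, and barrier lipid genes were higher in 9 of 23 and lower in 1. Alox12e, an epidermal lipoxygenase, had 21.2, 41.4 and 51.4 CPM from day 5, against 5.94, 6.71 and 18.6 CPM with imiquimod alone (log2 fold change 2.10 ± 0.26). The ceramidase Acer1 (0.57 ± 0.067), the fatty acid elongase Elovl7 (0.29 ± 0.043) and the fatty acid hydroxylase Fa2h (1.29 ± 0.18) rose as well. Cholesterol synthesis enzymes rose in 7 of 22 and fell in 1, by smaller amounts: Dhcr7 by 0.33 ± 0.048, Ebp by 0.26 ± 0.042 and Msmo1 by 0.20 ± 0.052.

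Sebaceous gland markers were higher in 14 of 17 tested and lower in 0, with a median of 0.77, and 13 were higher without library 13. Of all tested genes 15% were higher, and 12% without library 13. Far2, an enzyme of wax synthesis, had 87.3, 162 and 208 CPM from day 5, against 59.2, 67 and 79.6 CPM with imiquimod alone and 392 to 482 CPM in sham ears (log2 fold change over imiquimod 1.21 ± 0.14). Krt79, a keratin of the gland's duct and the opening of the hair follicle, had 664, 874 and 1049 CPM from day 5, against 357, 437 and 484 CPM with imiquimod alone (log2 fold change 1.06 ± 0.10, adjusted p = 2.62e-07). Soat1, which esterifies cholesterol, changed by 0.90 ± 0.12 and the elongase Elovl3 by 1.05 ± 0.16. None of the 4 overlapped between the groups.

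All 11 tested Skint genes, which encode thymic and epidermal proteins that shape the epidermal gamma delta T cells, were higher, with a median of 1.18. Without library 13, 10 were. The share of all tested genes was 15%, and 12% without library 13. Skint6 had 3.64, 4.08 and 6.77 CPM from day 5, against 1.46, 1.88 and 2.28 CPM with imiquimod alone (log2 fold change 1.29 ± 0.16). Skint1, the member known to select these T cells, had 11.7, 14.5 and 16.8 CPM from day 5, against 4.49, 6.18 and 11.5 CPM with imiquimod alone and 9.7 to 13.6 CPM in sham ears (log2 fold change over imiquimod 1.10 ± 0.15). Skint9 changed by 1.65 ± 0.25 and Skint10 by 1.26 ± 0.17. Skint genes are similar copies in one cluster, so single members may share reads. Transcripts of the epidermal gamma delta T cells themselves did not pass with all libraries, as given above.

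**Figure D4:**
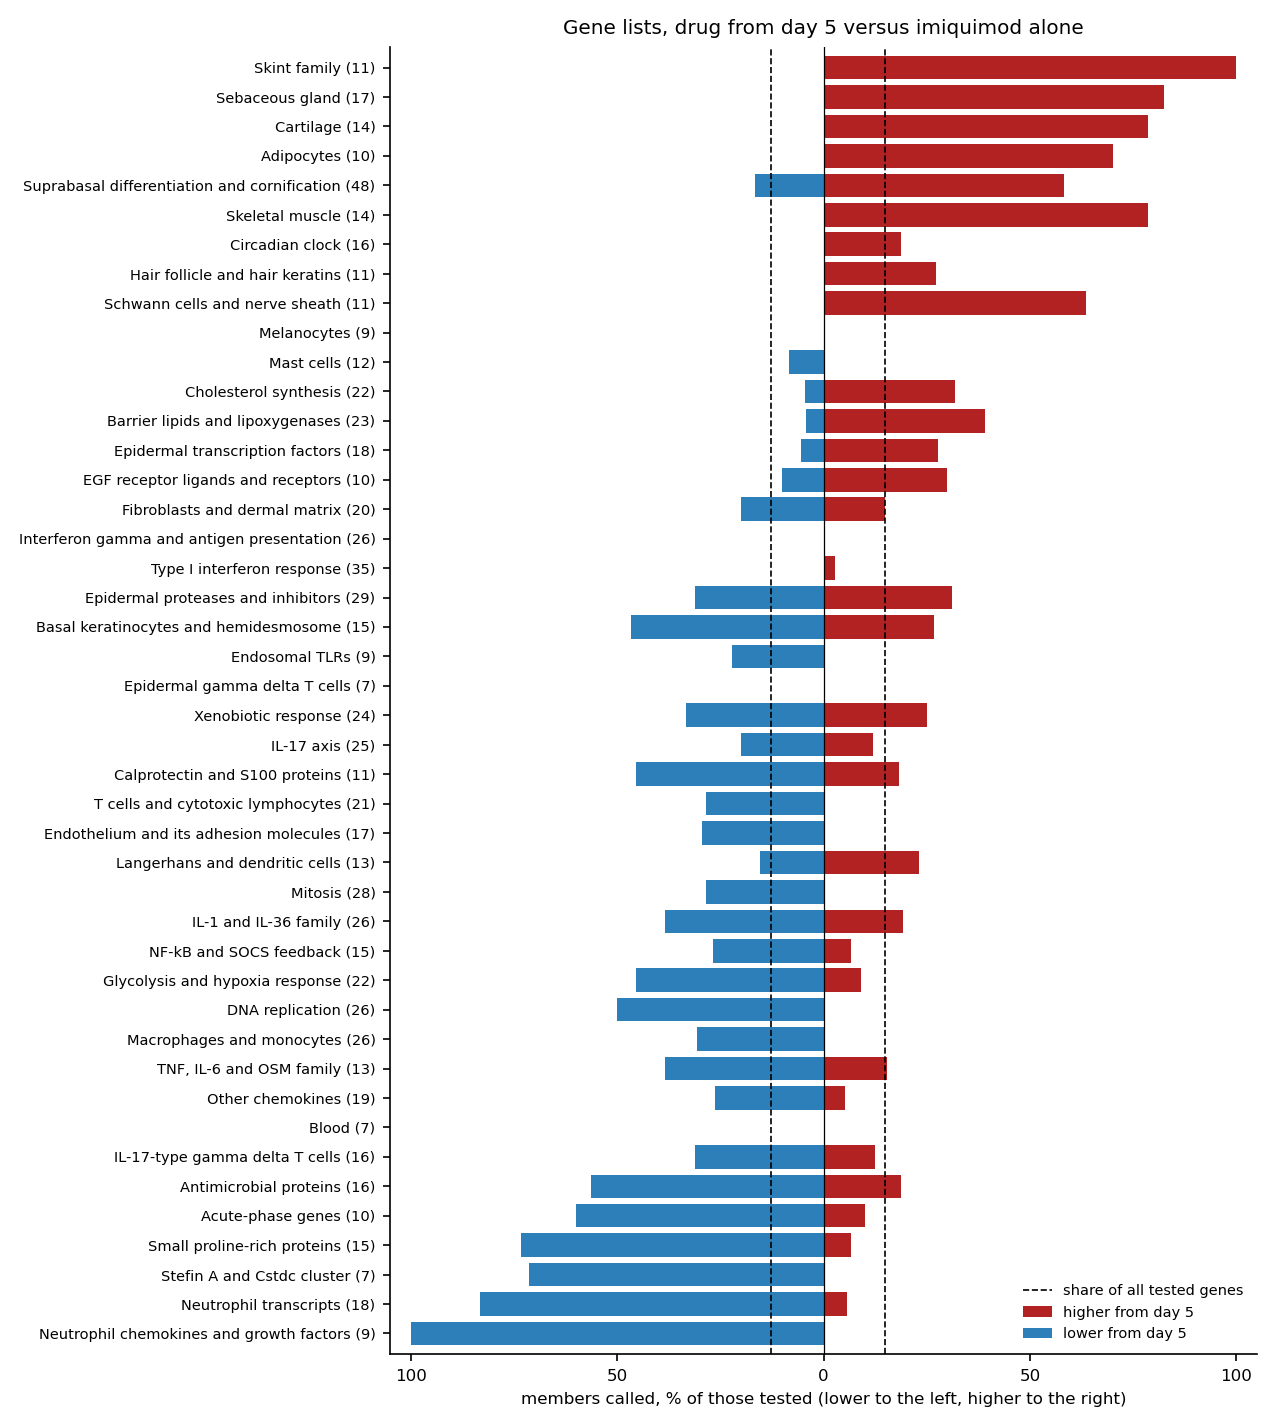
Share of tested members called higher (red, to the right) and lower (blue, to the left) from day 5 than with imiquimod alone in each list with at least 7 tested members (number tested in brackets), ordered by median log2 fold change. Dashed lines mark the shares over all tested genes, 15% higher and 12.7% lower, and the lists run from the Skint family (11 of 11 higher) to the neutrophil chemokines (9 of 9 lower).

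Among other cell types of the ear, macrophages had a share of lower transcripts above that of all genes (12.7%), while the shares for mast cells and fibroblasts were near it. Macrophage and monocyte transcripts fell in 8 of 26 (30.8%) and rose in 0 (7 fell and 2 rose without library 13): Cd163, a scavenger receptor of tissue macrophages, had 63.3, 78.1 and 90.1 CPM from day 5, against 106, 116 and 131 CPM with imiquimod alone, the Fc receptor Fcgr3 changed by -0.39 ± 0.091 and the endotoxin co-receptor Cd14 by -0.89 ± 0.22, while the complement gene C1qa did not pass (-0.079 ± 0.10). Of 13 tested Langerhans and dendritic cell transcripts 3 rose (23.1%, against 15% of all genes) and 2 fell (15.4%): Cd207, the langerin of Langerhans cells, rose by 0.57 ± 0.13 and Epcam, shared with keratinocytes, by 0.48 ± 0.083, and the dendritic cell receptor Flt3 fell (-0.51 ± 0.14). Of 12 mast cell transcripts 1 was called (8.33%), Hdc (-1.10 ± 0.23), the histamine-forming enzyme that neutrophils make as well, and the mast cell protease Mcpt4 was 0.087 ± 0.063 (adjusted p = 0.336). In the endothelium the selectins that catch leukocytes fell: Sele had 5.01, 6.05 and 7.5 CPM from day 5, against 8.83, 11.7 and 12.8 CPM with imiquimod alone, and Selp changed by -0.73 ± 0.15. Flt1, a VEGF receptor, fell (-0.28 ± 0.077) and Pecam1 did not pass (-0.13 ± 0.066). In all 5 of 17 endothelial genes were lower (29.4%), and 3 (17.6%) without library 13 or 15 of the day 5 group, where 10.3% and 11.6% of all genes were. Among fibroblast genes 3 of 20 rose (15%) and 4 fell (20%), with Timp1 (-1.10 ± 0.16), Mmp3 (-0.91 ± 0.14) and Pdgfra (-0.38 ± 0.061) lower, Postn, which encodes the matrix protein periostin (0.52 ± 0.078), higher, and Col1a1 not called (0.14 ± 0.11).

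Markers of tissues that lie deeper in an ear were higher together, and none of them was called lower in the lists of cartilage, muscle, fat and Schwann cells. Of all tested genes 15% were higher and 12.7% lower, and 12% and 10.3% without library 13. Cartilage markers were higher in 11 of 14 (11 without library 13), with a summed level of 448 to 483 CPM from day 5, against 328 to 373 CPM with imiquimod alone and 1057 to 1278 CPM in sham ears. Skeletal muscle was higher in 11 of 14 (9 without library 13), at 2447 to 3223 CPM from day 5, against 2064 to 2671 CPM with imiquimod alone and 10025 to 10437 CPM in sham ears. Adipocyte markers were higher in 7 of 10 (5 without library 13, 3 without imiquimod library 8), at 291 to 403 CPM from day 5, against 251 to 288 CPM with imiquimod alone and 661 to 834 CPM in sham ears. Schwann cell markers were higher in 7 of 11 (4 without library 13 or without imiquimod library 8), at 482 to 530 CPM from day 5, against 413 to 493 CPM with imiquimod alone and 1074 to 1160 CPM in sham ears. No marker of these lists was at 0 in any day 5 or imiquimod library. Examples are the cartilage gene Cnmd (0.82 ± 0.10), the muscle kinase Ckm (0.42 ± 0.078), the fatty acid transporter Cd36 (0.71 ± 0.12) and the nerve growth factor receptor Ngfr (0.89 ± 0.14). These shifts run beside the gains in sebaceous, Skint and differentiation genes and the losses in immune genes, and their part in those results was not tested. Of 9 melanocyte and 7 blood transcripts edgeR called 0, with 1 and 0 at an unadjusted p under 0.05 and 0 in any alternative.

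The remaining lists are read against the 15% higher and 12.7% lower of all tested genes. Higher and lower were 1 and 5 of 19 for other chemokines (5.26% and 26.3%) and 2 and 5 of 13 for the TNF, IL-6 and OSM family (15.4% and 38.5%). Without library 13, 3 were lower in each (15.8% and 23.1%), when 10.3% of all genes were. They were 9 and 9 of 29 for epidermal proteases and inhibitors (31% each), 3 and 1 of 10 for EGF receptor ligands and receptors (30% and 10%), and 5 and 1 of 18 for epidermal transcription factors (27.8% and 5.56%). They were 3 and 0 of 11 for hair follicle genes (27.3% higher, 18.2% without library 13) and 6 and 8 of 24 for the xenobiotic response (25% and 33.3%). Lists of few genes gave 1 and 2 of 4 for metallothioneins, and 2 and 1 of 7 for a set of single genes taken from earlier work on these data. Circadian clock genes were higher in 3 of 16 (18.8%) and lower in 0, with the output factor Hlf at 0.79 ± 0.18. The 3 became 10 without imiquimod library 12, 5 without library 15 and 1 without library 18 of the day 5 group.

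Leaving aside genes whose mean log2 CPM over all 30 libraries was under 1, the largest rises included hair and differentiation genes. That mean includes sham, so a gene with low counts in the compared groups can pass. Krtap3-2 is such a gene (mean log2 CPM 1.79), and its ratio rests on low values. Krtap3-2, a hair keratin-associated protein, had 0.82, 1.19 and 3.81 CPM from day 5, against 0.0316, 0.221 and 0.462 CPM with imiquimod alone and 6.81 to 15.8 CPM in sham ears (log2 fold change 2.84 ± 0.53), and Krtap19-2 had 10.7, 24.1 and 47.6 CPM from day 5, against 0.569, 4.19 and 9.57 CPM with imiquimod alone (2.32 ± 0.41). The antisense transcript Hoxa11os (2.58 ± 0.40) cannot be told from its partner without a stated strand setting. Cfap157, a ciliary gene, had 15.8, 37.8 and 75.6 CPM from day 5, against 4.46, 8.57 and 11.8 CPM with imiquimod alone. Cngb1, a channel subunit known from photoreceptors, changed by 2.12 ± 0.30 and the serpin Serpinb6d by 2.11 ± 0.35. At the low end, beside the chemokines, stefins and Saa3 above, stood Entpd3, an enzyme that degrades extracellular ATP, with 1.48, 2.97 and 4.55 CPM from day 5, against 6.7, 8.58 and 13.3 CPM with imiquimod alone (log2 fold change -1.59 ± 0.21).

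The smallest adjusted p values belonged to changes of modest size with little spread. Egr2, an early response transcription factor, had 33.8, 38.6 and 43.8 CPM from day 5, against 17.8, 19.1 and 23 CPM with imiquimod alone and 35.3 to 46.1 CPM in sham ears (log2 fold change over imiquimod 0.98 ± 0.084, adjusted p = 1.35e-08). Dhrs3, a retinaldehyde reductase, rose by 0.51 ± 0.046 (adjusted p = 1.47e-08). Beside Krt79, given above, the others fell without overlap: the gene model Gm49759 (-0.73 ± 0.068), the mannosidase Man2a1 (-0.41 ± 0.041), the actin regulator Enah (-0.47 ± 0.05), the hydrogen peroxide source Duox1 (-0.64 ± 0.068), the ATP receptor P2ry2 (-0.75 ± 0.081), the glutathione reductase Gsr (-0.56 ± 0.061) and the esterase Esd (-0.57 ± 0.061).

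Most genes still differed between the drug from day 5 and sham ears: 13916 of 18434 genes differed (75.5%; 37.4% higher and 38.1% lower), and in 4592 the log2 size was at least 1 (24.9%). Of the 1867 genes raised by imiquimod in the time course 92.9% were still higher than in sham, and of the 2006 lowered genes 89.3% were still lower. The medians were 1.53 and -1.47 for the drug from day 5 over sham, beside 1.77 and -1.77 for imiquimod alone over sham, 2 comparisons that share the sham libraries. The 10 genes with the smallest adjusted p over sham were all higher, several of them keratinocyte genes: Endou (3.18 ± 0.057 on the log2 scale), Galnt6 (3.11 ± 0.061), Cd24a (1.67 ± 0.034), Teddm3 (4.15 ± 0.079), Glrx (3.01 ± 0.062), Rars (1.38 ± 0.031), Tgm3 (3.41 ± 0.068), Igsf3 (1.92 ± 0.044), the fatty acid carrier Fabp5 (3.27 ± 0.067) and Cwh43 (2.31 ± 0.054). Endou, an endoribonuclease, had 618, 651 and 734 CPM from day 5, against 66.8 to 86.4 CPM in sham ears. Tgm3 had 457, 522 and 606 CPM from day 5, against 42.5 to 57.3 CPM in sham ears. Most of the lists that fell stayed above sham: neutrophil chemokines in 8 of 9, neutrophil transcripts in 16 of 18, Sprr genes in 15 of 15 and stefins in 7 of 7. Above and below sham were 5 and 7 of 16 for IL-17-type gamma delta T cells and 9 and 9 of 21 for T cells. They were 4 and 11 of 17 for endothelium and 5 and 9 of 15 for basal genes. With imiquimod alone the medians over sham of these lists were -0.025, -0.0072, -0.094 and -0.11, so as lists they were not raised. Among the lists that rose, cartilage was still below sham in 12 of 14, muscle in 14 of 14 and sebaceous markers in 10 of 17, while sebaceous markers were above sham in 4. Suprabasal differentiation and cornification genes also rose but moved further from sham. They were above sham in 42 of 48 from day 5 and in 35 of 48 with imiquimod alone, with medians of 1.73 and 1.18.

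Set directly against the earlier starts of the same experiment, the start on day 5 differed in few genes. Against the drug from day 3, 0 genes were called by edgeR, the smallest adjusted p was 0.425, 839 genes (4.55%) had an unadjusted p under 0.05, and DESeq2 called 3. Against the drug from day 0, 4 genes were called (0.0217%; 1 higher, 0.00542%, and 3 lower, 0.0163%) and 2253 (12.2%) had an unadjusted p under 0.05. Ctsk, a collagen-degrading cathepsin, was higher from day 5 at 75.4, 86.7 and 92 CPM, against 60.5, 64.2 and 71.7 CPM from day 0 (log2 fold change 0.38 ± 0.06, adjusted p = 0.00662). The muscle gene Rbm24 (-0.44 ± 0.082) and the glucocorticoid-responsive factor Klf9 (-0.48 ± 0.088) were lower from day 5, each with an adjusted p of 0.0366. The calls of Rbm24 and Klf9 were each lost on leaving out any 1 of 8 libraries, with an adjusted p of up to 0.148. Both were also lost with only the 2 groups compared in the fit, while Ctsk kept its call in every alternative. The count changes most with library 13. Without it 363 of 18648 tested genes differed between day 5 and day 0, 155 higher and 208 lower. Lists with the most calls were skeletal muscle (7 of 14 lower), macrophages and monocytes (4 of 26 higher) and circadian clock genes (3 of 16 lower). Without library 18 the count was 30, and without library 29 of the day 0 group it was 11. DESeq2 called 196 with all libraries, and against day 3 the count stayed at 0 without library 13. A p that misses the threshold does not show that the starts act alike: the median standard error of a log2 difference was 0.0873 against day 3 and 0.0876 against day 0.

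The time course offers libraries that are shared with neither group: drug given throughout against imiquimod alone at day 8, with 6 libraries each. There 293 of 18780 genes were called (1.56%), 1.22% of genes higher and 0.335% lower. Of 5095 genes called from day 5 and tested in both, 86.7% had the same sign there, against 68.1% of all 18198 genes, 215 (4.22%) were also called with the same sign and 0 with the opposite sign. Of the 292 genes called at day 8 of the time course and tested in both, 73.6% were called with the same sign from day 5. Of 214 genes higher from day 5 by a log2 of at least 1, 196 had the same sign and 46 were called, and of 131 genes lower by that much, 78 had the same sign and 0 were called. Krt2 (1.15 ± 0.23), Flg2 (1.80 ± 0.46), Far2 (0.63 ± 0.14) and Krt79 (0.50 ± 0.11) were called higher at day 8 of the time course, as were 8 of 17 sebaceous markers and 7 of 48 differentiation genes. Neutrophil chemokines had a median of 0.29 and neutrophil transcripts of 0.31 at day 8, with 0 called by edgeR in either list, 1 of 9 and 2 of 18 at an unadjusted p under 0.05, and Cxcl2 stood at 0.29 ± 0.71 and S100a9 at -0.59 ± 0.52 without passing.

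**Figure D5:**
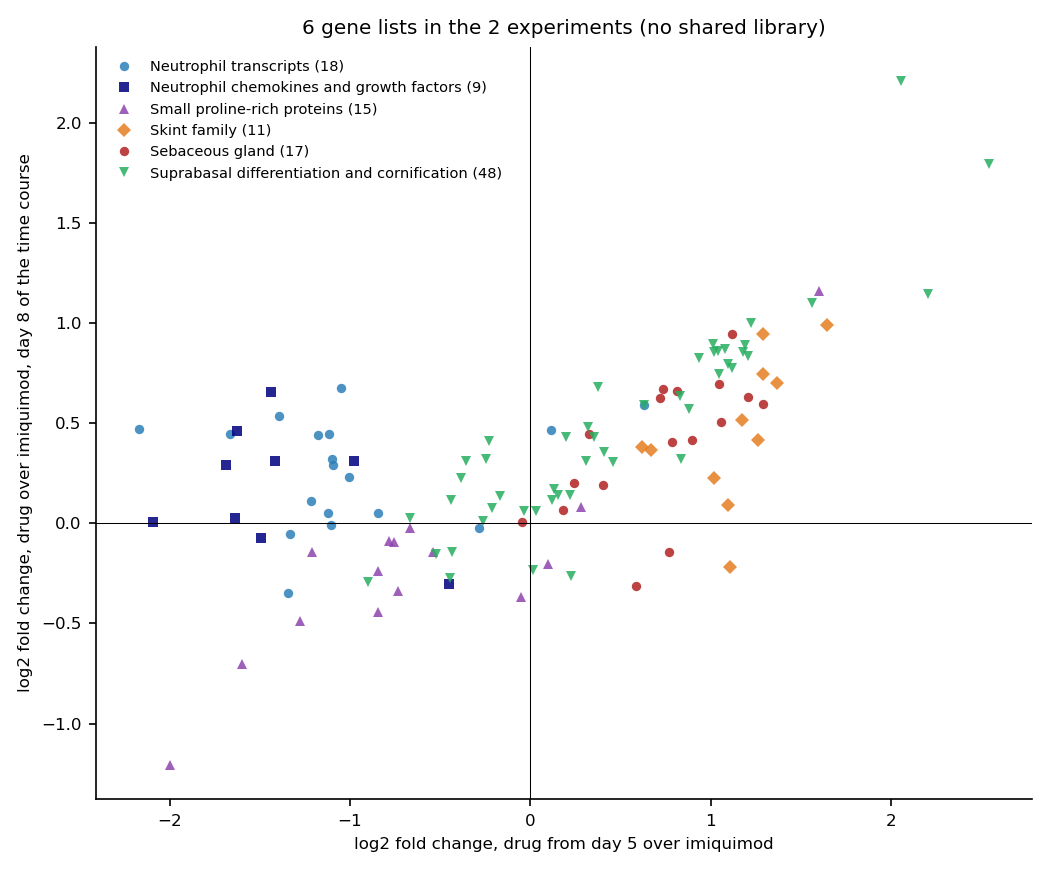
Log2 fold change of the drug from day 5 over imiquimod (horizontal axis) and of the drug over imiquimod at day 8 of the time course (vertical axis) for members of 6 lists, 1 point per gene. Sebaceous, Skint and differentiation genes mostly lie to the upper right, while 9 neutrophil chemokines and most of 18 neutrophil transcripts lie left of 0 on the horizontal axis, with vertical medians of 0.29 and 0.31.

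The difference between the 2 drug effects was tested in 1 fit of all 82 libraries. Of 19455 genes 11 were called (0.0565%), with 1963 at an unadjusted p under 0.05, so for most genes no difference was detectable. Cxcl14, an epithelial chemokine, was more negative from day 5 (-1.30 ± 0.24), as were the early response gene Ier3 (-0.82 ± 0.18), Tmem45b (-0.70 ± 0.15) and the gene model Gm6166 (-3.84 ± 0.82). The collectin Colec12 (0.50 ± 0.082), Egr2 (0.72 ± 0.16), Skint1 (1.01 ± 0.21), Pamr1 (0.91 ± 0.20), the ATP-degrading enzyme Entpd2 (0.53 ± 0.12), Ilvbl (0.46 ± 0.10) and the sulfatase Sulf2 (0.45 ± 0.093) were more positive. Without library 13 the count was 2. None of the neutrophil chemokines passed: the difference was -1.97 ± 0.84 for Cxcl2 and -2.09 ± 0.61 for Ppbp, with adjusted p values of 0.404 and 0.178. Start day, experiment and, by the labels, possibly sampling day differ between the 2 effects and cannot be told apart from these 2 effects alone. The start-day experiment also had the drug from day 0, labelled day 8. Against imiquimod alone, that group was lower in 9 of 9 neutrophil chemokines (median -1.39) and 16 of 18 neutrophil transcripts (median -1.31). Its difference from the time course was not tested.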

How the data were processed

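RNA of right ear punches kept in RNAlater was isolated with TRI reagent, and 1 µg went into the Tecan Universal Plus mRNA kit, per the labels' protocols. The authors deposited estimated counts per gene for 56941 genes, named as salmon output by the table names, on GRCm39 per the submitters' processing notes. No other step is given in the sources used here. The expected counts were rounded to whole numbers. No column of per-sample values was unmapped.

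Genes with low counts were removed by filterByExpr, libraries were scaled by TMM, and the robust quasi-likelihood test of edgeR 4.0.16 (R 4.3.3) was fitted to all 30 libraries of the start-day experiment, whose 5 groups share 1 estimate of spread, with Benjamini-Hochberg adjustment over 18434 genes. The time course was fitted separately, except for the 1 joint fit over 82 libraries. The test was tried on simulated counts. Alternatives were DESeq2 1.42.0, limma 3.58.1 voom with sample weights, RLE scaling, no filter, at least 1 CPM in 6 libraries, only the 2 groups compared, a log2 size of at least 1, and each library left out.

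The members and the 49 gene lists were chosen with earlier results of these data known. Named genes are 12 panel genes, the 8 called genes with the highest and the 8 with the lowest log2 fold change (mean log2 CPM 1 or more), the 10 smallest adjusted p per comparison and up to 4 called members per list, beside members that did not pass. Genes called in the joint fit, and Cxcl1, were named after their values were seen. Promoters are the 250 bases before the start in RefSeq (GRCm38.p6), used for letters only. A few genes that this rule names are not reported here.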

Additional observations from a re-analysis of the deposited data

Results flagged for a closer look

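The difference itself was tested for the genes given first, and each passed at an edgeR adjusted p under 0.05. Between the drug from day 5 and the drug from day 0 the log2 difference was 0.38 for Ctsk, -0.48 for Klf9 and -0.44 for Rbm24. Ctsk kept its call in all 15 alternatives, while Klf9 and Rbm24 each lost it in 9 of 15. Between the effect of the drug from day 5 and that of the drug at day 8 of the time course, the difference on the log2 scale was -0.82 for Ier3, 0.45 for Sulf2, 0.53 for Entpd2, -1.30 for Cxcl14 and 0.91 for Pamr1. It was 0.46 for Ilvbl, 0.50 for Colec12, 0.72 for Egr2, -0.70 for Tmem45b, -3.84 for Gm6166 and 1.01 for Skint1. Without library 13 of the day 5 group 2 genes passed in place of 11.

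A single library stood apart from the other 5 of its group in 20 of 348 groups of CPM values examined, and chance flags about 1 in 20 groups. The measure is the gap to the nearest library over the whole range of the group. In the drug from day 5 group library 13 stood apart in Hoxa11os (0.628), Chil3 (0.788), Gapdh (0.815) and Hlf (0.742), and library 14 in Dhrs3 (0.915), Scart2 (0.641) and Cd3e (0.632). Library 16 did so in Ccl20 (0.649) and Il23a (0.764), and library 17 in Ppbp (0.635). With imiquimod alone library 8 stood apart in Il18rap (0.642), Lce1i (0.636) and Krt10 (0.743), and library 9 in Lyz1 (0.711) and Soat1 (0.643). Library 10 did so in Trdc (0.643) and Cnmd (0.692), and library 12 in Il20ra (0.755), Alox12e (0.687) and Skint1 (0.668).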

How the results depend on the processing

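Against imiquimod alone the number of called genes lay between 4154 (without library 13 of the day 5 group) and 5333 (DESeq2), and a size of at least 1 on the log2 scale kept 361. The main fit, scaled by TMM, had 2770 higher and 2345 lower. RLE scaling gave 2478 higher and 2611 lower, and DESeq2 2586 and 2747, so the excess of higher genes did not hold there. The shares of 15% and 12.7% set beside the lists are those of the TMM fit. Against the drug from day 3 the count was 3 with DESeq2. Against the drug from day 0 it was 196 with DESeq2 and between 1 and 363 on leaving out 1 library. Of 154 named results called by edgeR 146 were called in every alternative, 8 lost their call in at least 1 and none changed direction. Against imiquimod alone, Ccr6, Cxcl1, Trdc and Myd88 also lost their calls with no filter on low counts. Trdc and Myd88 lost them with only the 2 groups compared as well. Uncalled genes that changed direction were Ifit1 (0.33 with voom, -0.34 to 0.28 on leaving out 1 library), Il36a (0.0054 with voom, -0.058 to 0.039), Cd3e (-0.041 to 0.055) and Irf7 (-0.077 to 0.52). The cause was not tested. No paired analysis was possible because the replicate numbers differ in every group. What depth limits was not tested, and Il22 and Mmp8, at a few CPM, were called.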
